A study of Mus musculus with 6 samples.

Results

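Basophil and mast cell granule genes encode the proteases, the histamine-forming enzyme and the core proteoglycan that these cells store in their secretory granules. The 9 genes named were Mcpt8, Prss34, Cpa3, Hdc, Tpsb2, Tpsab1, Mcpt4, Cma1 and Srgn. They were chosen by name from knowledge of these granules and with the difference between the groups of this study already known, so their values are a description and carry no test. Of the 9 genes, 7 had a row among the 20097 genes listed. Tpsab1 and Mcpt4 had no row and were not analysed here. Of the 7, 6 passed the filter on low values, and Tpsb2 did not. Prss34 and Cma1 passed it through the WT-labelled libraries alone, so a difference in them was built into passing.

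Mouse bone marrow cells carrying the receptor c-Kit, among them many blood progenitors, were the material. Poly-A RNA was sequenced in 3 libraries with the genotype label WT and 3 with the genotype label Runx1 KO. No allele, strain, age or sex is given in the sources used here, nor is how or when Runx1 was disrupted, or whether the libraries came from separate animals. The spread between libraries may therefore be technical. All libraries were sequenced in 1 pool, and no batch is named.

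Basophils and mast cells release granule contents when antigen cross-links IgE bound to their surface receptor. Granule proteases are packed onto serglycin, a proteoglycan whose sulfated chains bind positively charged proteins and amines. In the mouse, the proteases encoded by Mcpt8 and Prss34 are known from basophils, whereas the chymases of Cma1 and Mcpt4 and the tryptases of Tpsb2 and Tpsab1 are known from mast cells. Cpa3 and Hdc are used by both cell types and by some of their progenitors, and Srgn by many blood cells.

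The promoters of Mcpt8, Prss34 and Cpa3 are shown first, because the genes with the widest gaps between the groups and a granule gene without such a gap can be compared letter by letter. Sequences are from RefSeq on GRCm38.p6, and 7 of the 9 genes had an entry. Capitals mark matches to 3 short motifs searched on both strands in the 250 bases before the start. The RUNX core was TGTGGT, which appears as ACCACA where it lies on the other strand. The GATA motif was AGATAA, which appears as TTATCT in reverse. The E-box was CAGCTG, which reads the same on both strands, and no match to 1 motif overlapped a match to another in these promoters. The Mcpt8 stretch is chr14:56085274-56085447, minus strand, and ends 77 bases before the RefSeq start. The Prss34 stretch is chr17:25298144-25298393, plus strand, and the Cpa3 stretch is chr3:20242182-20242431, minus strand.
Mcpt8: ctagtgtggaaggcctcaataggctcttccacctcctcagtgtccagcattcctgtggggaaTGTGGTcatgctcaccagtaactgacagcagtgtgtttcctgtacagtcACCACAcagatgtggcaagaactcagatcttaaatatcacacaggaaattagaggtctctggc
Prss34: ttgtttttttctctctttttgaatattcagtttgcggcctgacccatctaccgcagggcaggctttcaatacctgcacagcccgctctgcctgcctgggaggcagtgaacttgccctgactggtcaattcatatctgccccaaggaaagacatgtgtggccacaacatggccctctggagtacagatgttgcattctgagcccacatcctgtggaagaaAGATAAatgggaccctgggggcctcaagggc
Cpa3: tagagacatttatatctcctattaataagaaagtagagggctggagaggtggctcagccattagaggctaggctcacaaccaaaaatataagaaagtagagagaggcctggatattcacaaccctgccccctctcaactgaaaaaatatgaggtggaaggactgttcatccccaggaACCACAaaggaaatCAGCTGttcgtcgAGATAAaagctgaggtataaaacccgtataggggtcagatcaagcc

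Mcpt8 held 2 RUNX matches, which began 188 and 139 bases before the start, and no match to the other motifs. Prss34 held 1 GATA match, beginning 31 bases before the start. Cpa3 held 1 match to each motif within a short stretch, beginning 73, 59 and 46 bases before the start. Mcpt4 and a second start of Srgn each held 1 RUNX match, the first start of Srgn held 1 E-box, and Hdc and Cma1 held none. Distances count from the RefSeq start. The bases searched for Hdc and for the second start of Srgn lay wholly inside the gene bodies of GENCODE M21. Over all 32851 promoters in the table, 14.0% held at least 1 RUNX match, 1.27% held 2 or more, 9.99% held a GATA match and 13% an E-box. A match is a run of letters and says nothing on binding.

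Runx1 was checked first, because it is the gene named in the labels. It measured 3031, 2799 and 3497 normalised reads in WT 1 to 3 and 6648, 6720 and 5830 in Runx1 KO 1 to 3, so its level was higher, not lower, under the KO label (log2 difference 1.04, SE 0.10; limma, Benjamini-Hochberg adjusted p = 0.00163). Gene-level values do not show which exons the reads came from, so the label could not be checked further, and the libraries are called WT-labelled and KO-labelled throughout. A normalised read is a read count divided by a size factor of its library, and 1 read was worth between 0.959 and 1.05 normalised reads. The libraries held between 23297526 and 26793380 reads in listed genes. On the first principal component of all tested genes (69.2% of the variance), Runx1 KO 1 lay at 22.8 and the other KO-labelled libraries at 64.5 and 60.8, against -65.0 to -39.8 in the WT-labelled libraries. Of 15410 tested genes, 11.3% were called lower and 10.6% higher in the KO-labelled libraries (limma on log2(normalised reads + 1), Benjamini-Hochberg adjusted p under 0.05).

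Mcpt8 and Prss34, the basophil proteases, were far lower in every KO-labelled library, Cma1 was lower from a low level, and Srgn was slightly lower. Cpa3 and Hdc were at least as high on average in the KO-labelled libraries, with ranges that overlapped. The granule genes therefore did not move as 1 group. In these bulk samples, fewer cells of a type and less RNA per cell cannot be told apart.

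Mcpt8 (ENSMUSG00000022157; chr14:56082166-56085273 on GRCm38, minus strand) encodes a granzyme-like serine protease used as a marker of mouse basophils. It measured 1846, 1452 and 1687 normalised reads in WT 1 to 3 and 138, 139 and 120 in Runx1 KO 1 to 3. The KO-labelled libraries lay close together, and the highest of them was far under the lowest WT-labelled library. The means were 1662 ± 198 (SD, n = 3) and 132 ± 10.4 (SD, n = 3), a ratio of 12.6 and a log2 difference of -3.64 (SE 0.12). With 121 to 140 reads in each KO-labelled library, Mcpt8 remained measurable there.

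Prss34 (ENSMUSG00000056399; chr17:25298394-25300165, plus strand) encodes a tryptase-like serine protease known from basophils. Its normalised reads were 4096, 2069 and 2532 in WT 1 to 3 and 5.23, 3.96 and 1.99 in Runx1 KO 1 to 3. In the KO-labelled libraries these values stand for 5, 4 and 2 reads, 11 in all. The 95% exact Poisson interval was 5.49 to 19.7, for counting error only, which leaves out the spread between libraries. No molecular identifiers tell copied reads apart, so the counting error itself may be understated. The groups did not overlap. The WT-labelled mean was 778 times the KO-labelled mean. It was 435 to 1558 times with the KO-labelled reads at the bounds of that interval and the WT-labelled mean held fixed. The fitted log2 difference was -9.26 (SE 0.35), a value that moves with the pseudocount at so few reads. WT 1 stood above the other WT-labelled libraries, at 1.98 times the lowest, a wider spread than the 1.27 times of Mcpt8.

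The 2 basophil proteases were not lower in the same proportion. The ratio of Prss34 to Mcpt8 was 2.22, 1.42 and 1.50 in WT 1 to 3, and 0.0379, 0.0286 and 0.0165 in Runx1 KO 1 to 3. Prss34 thus went from the more abundant of the pair to a small share of Mcpt8 in each KO-labelled library. The plot of each gene by library shows the same gap.

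**Figure D1:**
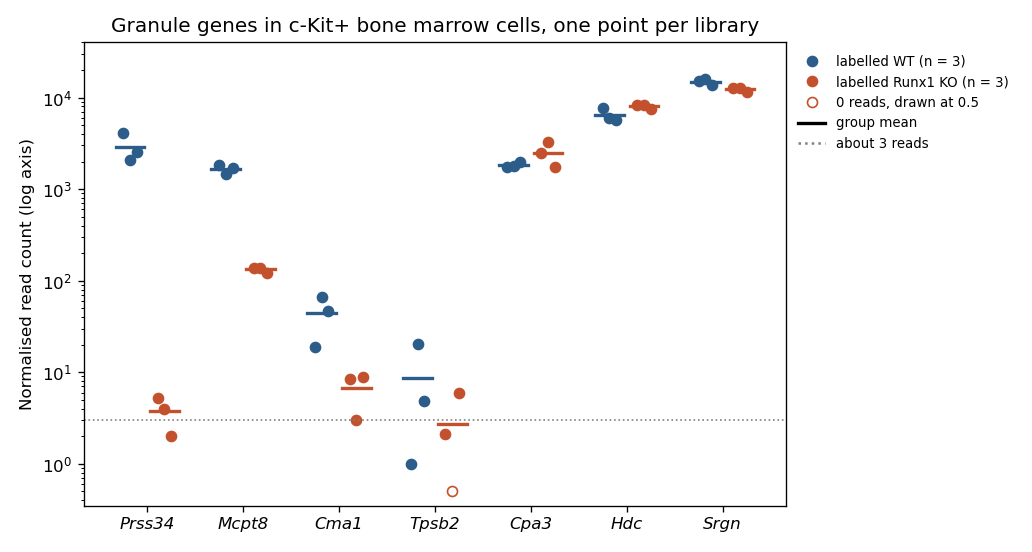
Normalised read counts of the 7 granule genes with a row (log axis), 1 point per library and a line at the mean of each group of 3. Prss34 sits between 2069 and 4096 in the WT-labelled libraries and between 1.99 and 5.23 in the KO-labelled ones, while Cpa3 and Hdc overlap between the groups.

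Cma1 (ENSMUSG00000022225; chr14:55941451-55944675, minus strand) encodes a mast cell chymase-family protease. It measured 18.8, 66.6 and 47.0 normalised reads in WT 1 to 3 and 8.37, 2.97 and 8.95 in Runx1 KO 1 to 3. Every KO-labelled library was under every WT-labelled one, although WT 1 came close. The means were 44.1 ± 24.0 and 6.76 ± 3.30 (SD, n = 3 each), a ratio of 6.52. This ratio ran from 4.22 to 10.7 with the 20 pooled KO-labelled reads at their 95% exact Poisson bounds and the WT-labelled mean held fixed. The fitted log2 difference was -2.48 (SE 0.56). Of the 50-base windows of its transcripts, 5.38% also occur in Gm48934, so a small part of its reads could be shared.

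Tpsb2 (ENSMUSG00000033825; chr17:25366305-25369098, plus strand) encodes a mast cell tryptase. It measured 0.989, 20.2 and 4.80 normalised reads in WT 1 to 3 and 2.09, 0 and 5.97 in Runx1 KO 1 to 3. The groups overlapped, and 20 of the 26 WT-labelled reads came from WT 2. The 8 KO-labelled reads had an exact Poisson interval of 3.45 to 15.8 and the 26 WT-labelled reads one of 17.0 to 38.1, for counting error only. No difference was readable over the spread between libraries at this depth.

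Cpa3 (ENSMUSG00000001865; chr3:20215620-20242181, minus strand) encodes carboxypeptidase A3, a metalloprotease that trims the ends of peptides in the granule. It measured 1760, 1768 and 1959 normalised reads in WT 1 to 3 and 2460, 3263 and 1756 in Runx1 KO 1 to 3. Runx1 KO 3 lay just under the lowest WT-labelled library and the other KO-labelled libraries above all 3. The means were 1829 ± 113 and 2493 ± 754 (SD, n = 3 each), with a log2 difference of 0.40 (SE 0.20).

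Hdc (ENSMUSG00000027360; chr2:126593667-126619299, minus strand) encodes histidine decarboxylase, which makes histamine from histidine. It measured 7734, 6034 and 5740 normalised reads in WT 1 to 3 and 8304, 8292 and 7467 in Runx1 KO 1 to 3. WT 1 lay above Runx1 KO 3, so the groups overlapped. The means were 6503 ± 1077 and 8021 ± 480 (SD, n = 3 each), with a log2 difference of 0.31 (SE 0.12).

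Srgn (ENSMUSG00000020077; chr10:62493833-62527451, minus strand) encodes serglycin, the core protein onto which granule proteases and amines are packed. It measured 15001, 15967 and 13557 normalised reads in WT 1 to 3 and 12811, 12695 and 11383 in Runx1 KO 1 to 3. The groups did not overlap, but the gap between Runx1 KO 1 and WT 3 was small. The means were 14841 ± 1213 and 12297 ± 793 (SD, n = 3 each), a ratio of 1.21 and a log2 difference of -0.27 (SE 0.08).

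Ratios within a library do not depend on its size factor. Cpa3 stood at 0.953, 1.22 and 1.16 times Mcpt8 in WT 1 to 3 and at 17.8, 23.5 and 14.6 times in Runx1 KO 1 to 3. Hdc stood at 4.19, 4.16 and 3.40 times Mcpt8 in the WT-labelled libraries and at 60.1, 59.8 and 62.0 times in the KO-labelled ones. The Hdc to Cpa3 ratio, in contrast, was 4.39, 3.41 and 2.93 against 3.38, 2.54 and 4.25, and its ranges overlapped. Relative to Mcpt8, then, Cpa3 and Hdc were each more abundant in every KO-labelled library, while their relation to each other showed no gap between the groups.

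**Figure D2:**
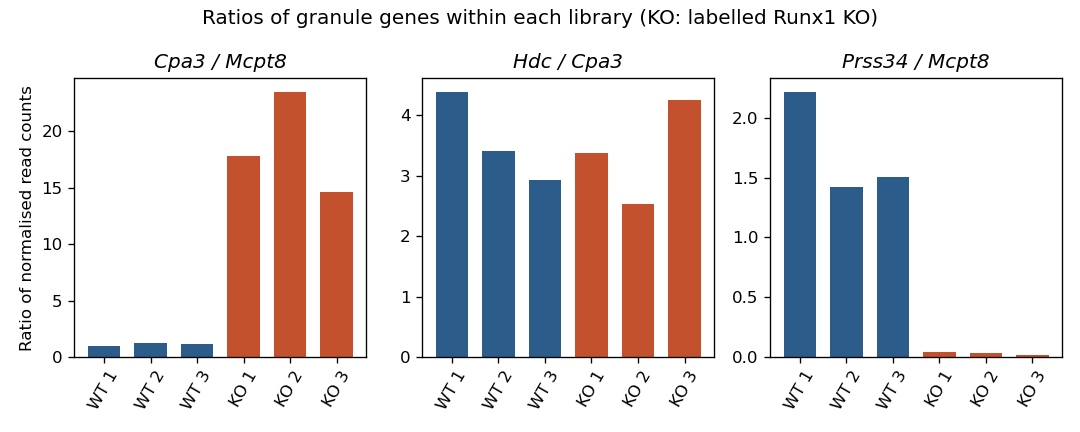
Ratios of normalised read counts within each library, 1 bar per library, each panel with its own axis starting at 0. Cpa3 over Mcpt8 runs from 0.953 to 1.22 in WT 1 to 3 and from 14.6 to 23.5 in Runx1 KO 1 to 3, whereas Hdc over Cpa3 overlaps between the groups.

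Levels of different genes were set side by side as normalised reads per kilobase of exon. In the WT-labelled libraries, Srgn had the highest mean level per kilobase (6758 ± 552, SD, n = 3), followed by Prss34 (2376 ± 871), Mcpt8 (1665 ± 199), Cpa3 (1206 ± 74.2) and Hdc (1018 ± 169). Cma1 (40.5 ± 22.0) and Tpsb2 (5.43 ± 6.37) were far under these. The ranges of Prss34 and Mcpt8 overlapped, but Prss34 was the higher within each WT-labelled library. The pairs were 3357 and 1850, 1696 and 1455, and 2076 and 1691 in WT 1 to 3. The ranges of Cpa3 and Hdc also overlapped, and their order changed between libraries, with Hdc higher in WT 1 and Cpa3 in WT 2 and WT 3.

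In the KO-labelled libraries the order by level per kilobase was Srgn (5600 ± 361), Cpa3 (1643 ± 497), Hdc (1255 ± 75.1), Mcpt8 (133 ± 10.5), Cma1 (6.21 ± 3.02), Prss34 (3.06 ± 1.34) and Tpsb2 (1.69 ± 1.90). Cpa3 and Hdc again overlapped, and so did the last 3. Among 20077 genes ranked by mean level per kilobase, Prss34 went from rank 495 to rank 16711 and Mcpt8 from rank 835 to rank 8258. Srgn stayed near the top, at rank 91 and rank 102. Cpa3 went from rank 1272 to rank 745 and Hdc from rank 1580 to rank 1050. With the longest transcript as the length in place of all exons, Hdc came before Cpa3 in both groups.

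The chymase locus on chromosome 14 holds Cma1, Mcpt4, Mcpt8, Ctsg and the granzyme genes in 1 cluster. Within 500 kb of the genes named, 35 further coding genes were tested, of which 5 fell, 6 rose and 24 did not pass (median log2 change 0.01, against -0.0042 over all tested genes). Over all tested genes, 11.3% were called lower and 10.6% higher, and whether the locus differs from these shares was not tested. Ctsg, which encodes the neutrophil and mast cell protease cathepsin G, starts 17.3 kb from Mcpt8 and had 20592 ± 1643 and 19822 ± 514 normalised reads (log2 difference -0.05, SE 0.07; limma adjusted p = 0.629). Gzmb, which encodes the cytotoxic protease granzyme B, starts 177 kb from Mcpt8. It fell from 390, 276 and 298 normalised reads to 74.3, 12.9 and 2.98 (log2 change -4.31, SE 0.94; limma adjusted p = 0.0200). The call for Gzmb was lost when any WT-labelled library or Runx1 KO 2 was left out, with adjusted p up to 0.0728 in limma.

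The other called genes around the chymases are not known as granule proteases. Ltb4r1, which encodes a leukotriene B4 receptor, fell by 0.75 on the log2 scale (SE 0.11), and Rec8, a meiotic cohesin subunit, rose by 1.16 (SE 0.10). Irf9, part of the interferon-response complex, rose by 0.65 (SE 0.09). These 3 calls held with any 1 library left out. Cbln3 (-1.50), Sdr39u1 (-0.87) and Dhrs1 (-0.45) also fell and Nynrin (0.65) and Tm9sf1 (0.30) also rose, but each of these calls was lost without Runx1 KO 2, with limma adjusted p up to 0.133 over the alternatives. Farther from Mcpt8, Pck2 rose by 0.46 (SE 0.07), which held with any 1 library left out, and Carmil3 by 1.59 (SE 0.40), which was lost without WT 1 or without any 1 of the KO-labelled libraries (limma adjusted p up to 0.0953). Cbln3 passed the filter through the WT-labelled libraries alone. Gzmb reached the filter's minimum in each WT-labelled library but not in each KO-labelled one, and Carmil3 the reverse. Cma2, Mcpt1, Mcpt2, Mcpt9 and the granzyme genes Gzmd, Gzme, Gzmf, Gzmg and Gzmn had no row and were not analysed here.

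The tryptase locus on chromosome 17 holds Prss34, Tpsab1 and Tpsb2. Of 34 further tested coding genes within 500 kb, 3 fell, 3 rose and 28 did not pass (median log2 change 0.06). The shares over all tested genes were 11.3% lower and 10.6% higher, and a difference of the locus from them was not tested. Baiap3, which starts 42.0 kb from Prss34 and encodes a protein of vesicle trafficking, fell from 207 ± 35.9 to 31.2 ± 10.3 normalised reads (log2 change -2.72, SE 0.26; limma adjusted p = 0.00171). This call held with any 1 library left out.

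Cacna1h, a calcium channel gene 135 kb on the other side of Prss34, fell by 1.61 on the log2 scale (SE 0.43; limma adjusted p = 0.0374), a call lost when WT 1, WT 3, Runx1 KO 2 or Runx1 KO 3 was left out, with adjusted p up to 0.125. Cacna1h reached the filter's minimum in each WT-labelled library but not in each KO-labelled one. Mrps34, a mitochondrial ribosome gene 403 kb from Prss34, rose by 1.25 (SE 0.20) and held with any 1 library left out. The calls for Nubp2 (-0.25), Fahd1 (0.38) and Mapk8ip3 (0.35) did not hold without Runx1 KO 2, with limma adjusted p up to 0.110. Around Cpa3, 1 of 4 tested neighbours within 500 kb fell (against 11.3% of all tested genes), Cp (-1.15, SE 0.22). Around Hdc none of 10 passed the limma threshold. Around Srgn 4 of 14 rose (against 10.6% of all tested genes): Hk1 (0.45), Stox1 (1.31), Tet1 (0.63) and Rufy2 (0.81). These 5 genes were named after their values were seen, and without Runx1 KO 2 only Stox1 still passed (limma adjusted p up to 0.0881 for the others).

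**Figure D3:**
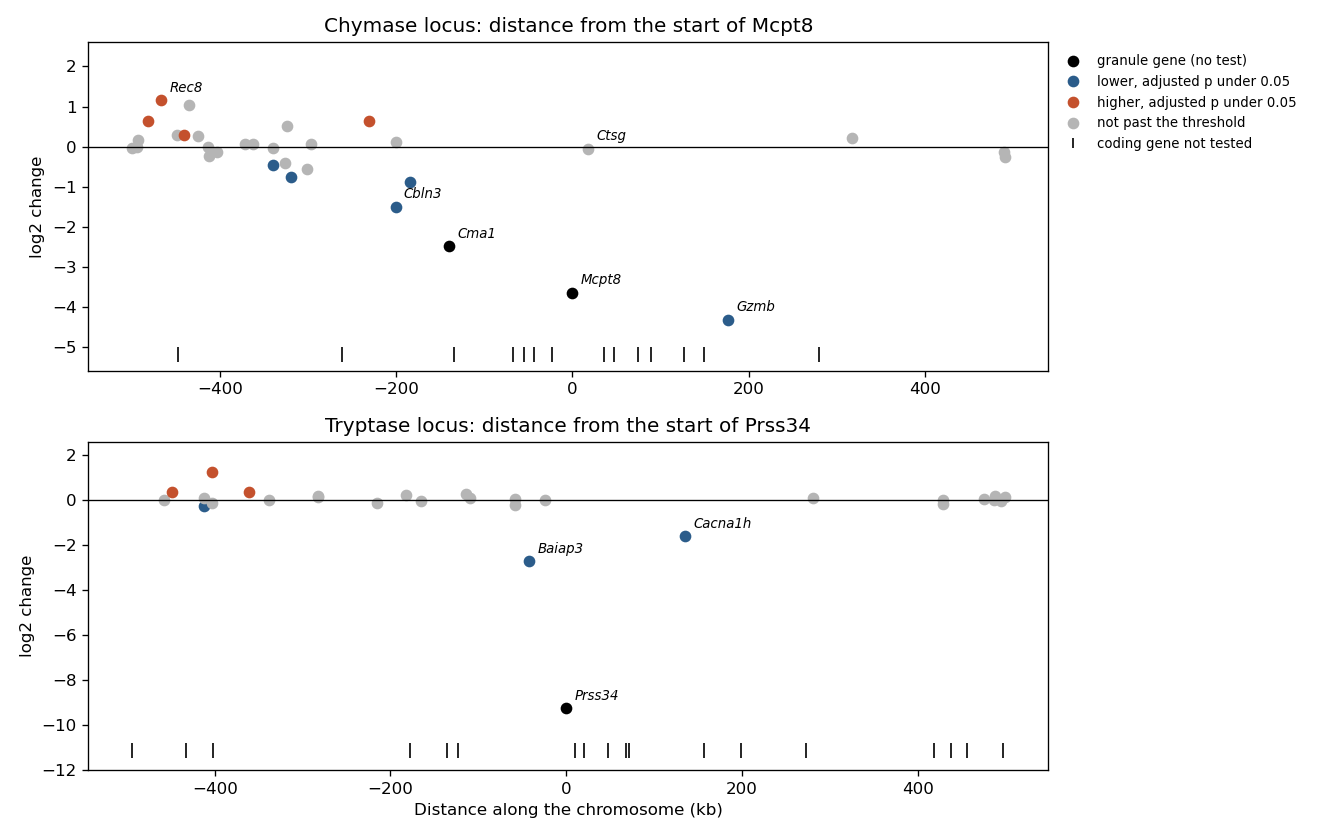
Log2 change (KO-labelled minus WT-labelled) of tested coding genes against distance in kb from the start of Mcpt8 (top) and of Prss34 (bottom), 1 point per gene, with ticks for coding genes that were not tested. Ctsg at 17.3 kb lies at -0.05, beside Mcpt8 at -3.64, and Baiap3 at 42.0 kb lies at -2.72, beside Prss34 at -9.26.

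Around the granule genes themselves, 7 lists of pathway genes were followed, which contain none of the 9. Of 98 tested genes, 26 fell (26.5%, against 11.3% of all tested genes) and 22 rose (22.4%, against 10.6%), with a median log2 change of -0.06. Scaled to library totals, which raised the median over all tested genes to 0.08, 19 fell and 25 rose, so the share of risers among the called went from 45.8% to 56.8%. Over all genes that share went from 48.4% to 63.5%. Leaving out Runx1 KO 2 left 12 that fell and 12 that rose. Of the 26 that fell, 3 (Fcer1a, Gzmb and Prss30) reached the filter's minimum in each WT-labelled library but not in each KO-labelled one, as did 288 of the 1739 genes that fell over all.

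Genes for the IgE receptor, cytokine receptors and surface proteins of these cells were called lower in 7 of 17 tested and higher in 2 (median log2 change -0.70). These shares were 41.2% and 11.8%, against 11.3% and 10.6% of all tested genes. All 3 chains of the IgE receptor fell. Fcer1a, the IgE-binding chain, had 364, 180 and 213 normalised reads in WT 1 to 3 and 3, 1 and 5 reads in Runx1 KO 1 to 3. Like Prss34, it passed the filter through the WT-labelled libraries alone, so a lower value was built into passing. Ms4a2, the beta chain, fell from 901 ± 140 to 341 ± 42.1 normalised reads (log2 change -1.40, SE 0.14), and Fcer1g, the signalling chain shared with other Fc receptors, from 5351 ± 659 to 2189 ± 648 (-1.32, SE 0.19). Runx1 KO 1 lay above the other KO-labelled libraries for Fcer1g, at 2937 against 1819 and 1811.

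The receptors for alarm cytokines went in opposite directions. Il18r1 and Il18rap, the chains of the interleukin-18 receptor, fell by 3.37 (SE 0.60) and 1.91 (SE 0.31) on the log2 scale. Il1rl1, the interleukin-33 receptor, rose from 613 ± 71.9 to 1379 ± 319 normalised reads (1.15, SE 0.17). Cd200r4, a surface receptor of the CD200 receptor family, rose from 35.5 ± 7.08 to 163 ± 2.29 (2.18, SE 0.19), while Cd200r3, a basophil and mast cell receptor of the same family, had 125, 37.3 and 47.0 normalised reads in WT 1 to 3 against a KO-labelled mean of 90.4 ± 8.04 and did not pass (limma adjusted p = 0.367). WT 1 decided this: without it the WT-labelled mean was 42.2 and Cd200r3 was called higher (log2 change 1.09, SE 0.21; limma adjusted p = 0.0236). Cd63, the tetraspanin that appears on the surface on degranulation, fell by 1.46 (SE 0.12). In this list, leaving out 1 library at a time left 6 to 7 called lower and 2 to 3 called higher.

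Of the related granule proteases, 5 of 22 had a row and 4 were tested. Gzmb and Prss30, a membrane-anchored serine protease, were called lower (-4.31 and -1.94), and Ctsg and Gzma did not pass. The calls for Gzmb and Prss30 were lost when any WT-labelled library or Runx1 KO 2 was left out, and that of Prss30 also without Runx1 KO 3. Both genes passed the filter on the strength of the WT-labelled libraries, since Prss30 had 15, 3 and 8 reads and Gzmb 71, 13 and 3 reads in Runx1 KO 1 to 3. Gzmc had 3, 5 and 2 reads in WT 1 to 3 and 0 in each KO-labelled library, too few for a fold.

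Of the 7 tested genes for storing and breaking down amines, 2 rose (28.6%, against 10.6% of all tested genes) and 1 fell (14.3%, against 11.3%). Slc18a2, the transporter that loads histamine and serotonin into vesicles, rose from 576 ± 118 to 897 ± 48.1 normalised reads (log2 change 0.66, SE 0.15; limma adjusted p = 0.0212), a call lost without WT 1, Runx1 KO 2 or Runx1 KO 3 (adjusted p up to 0.0770). Slc22a3, a transporter that moves histamine across the cell membrane, rose from 1147 ± 245 to 2040 ± 199 (0.85, SE 0.15), and Maoa, an amine-oxidising enzyme, fell from 667 ± 56.5 to 434 ± 48.2 (-0.62, SE 0.11). Both of these calls held with any 1 library left out. Hnmt, which inactivates histamine by methylation, did not pass (463 ± 58.1 and 408 ± 30.7). Hdc and these 2 transporters thus all had a higher mean in the KO-labelled libraries.

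Enzymes that build the sugar chains carried by serglycin were called higher in 8 of 20 and lower in 2 (median log2 change 0.10). These shares were 40% and 10%, against 10.6% and 11.3% of all tested genes. Csgalnact1, which starts chondroitin sulfate chains, had the largest rise, from 197 ± 30.6 to 532 ± 73.7 normalised reads (1.44, SE 0.16). Its relative Csgalnact2 fell by 0.22 (SE 0.06), as did the chondroitin sulfotransferase gene Chst12 by 0.27 (SE 0.07), and neither call held with library totals as the scaling. B3galt6, which builds the linker to the core protein, rose by 0.51 (SE 0.09), Extl3, which starts heparan sulfate and heparin chains, by 0.48 (SE 0.08) and Hs6st1, a sulfotransferase, by 0.44 (SE 0.11). Ndst2, the sulfotransferase known to be needed for mast cell heparin, rose from 1235 ± 50.2 to 1566 ± 105 (0.34, SE 0.07). With 1 library left out, 2 to 6 were called higher. The calls of Csgalnact1 and Extl3 were never lost, and the other 6 were each lost without Runx1 KO 2, with limma adjusted p up to 0.143 over the alternatives.

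Genes for the maturation and sorting of granule proteases were called lower in 6 of 13 and higher in none (median log2 change -0.29). The share called lower was 46.2%, against 11.3% of all tested genes. With library totals as the scaling 4 were called lower, and 2 to 8 with 1 library left out, the fewest without Runx1 KO 2. Ctse, an aspartic protease, fell from 9134 ± 1467 to 4267 ± 828 normalised reads (-1.10, SE 0.17), and Serpinb1a, an inhibitor of neutrophil-type serine proteases, from 9704 ± 1403 to 5606 ± 654 (-0.79, SE 0.12). Both held with any 1 library left out. Lgmn, the cysteine protease legumain, fell by 0.58 (SE 0.14) and Ctsz, a cathepsin, by 0.36 (SE 0.07), and both calls were lost without Runx1 KO 2 (limma adjusted p up to 0.0809). Ctsc, which removes the activation dipeptide of granule serine proteases, had 4900 ± 250 and 4154 ± 779 and did not pass (limma adjusted p = 0.208).

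In the exocytosis list, 3 of 17 tested genes fell (17.6%, against 11.3% of all tested genes) and 2 rose (11.8%, against 10.6%), with a median log2 change of -0.06. With library totals as the scaling, 2 fell and 4 rose, and Vamp8 lost its call. Rab3d, a GTPase of secretory granules, fell from 4394 ± 661 to 2193 ± 265 normalised reads, 0.499 times the WT-labelled mean (limma adjusted p = 0.00389), and this call held with any 1 library left out. The paired GTPases Rab27a and Rab27b, which bring granules to the membrane, moved apart: Rab27a fell by 0.37 (SE 0.07) and Rab27b rose by 0.85 (SE 0.23). Rab27a lost its call without Runx1 KO 2 or Runx1 KO 3. Rab27b lost its call when any library but Runx1 KO 3 was left out, with limma adjusted p up to 0.126. Vamp8 fell by 0.22 (SE 0.05) and Rab44 rose by 0.28 (SE 0.06), with limma adjusted p up to 0.125 and 0.0689 when 1 library was left out. Without Runx1 KO 2 the list had 1 fall and 1 rise, and without Runx1 KO 1 it had 5 falls and 1 rise.

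Among 20 regulators of these cells, 8 rose (40%, against 10.6% of all tested genes) and 5 fell (25%, against 11.3%). The median log2 change was 0.31. Runx1 itself, the gene named in the labels, is among the 8, with the largest rise in the list (1.04). It is therefore also among the 22 pathway genes that rose. Gata2, a transcription factor needed for basophil and mast cell fate, rose from 2511 ± 568 to 4351 ± 277 normalised reads (0.82, SE 0.15; limma adjusted p = 0.0128), a call lost without Runx1 KO 2 (adjusted p = 0.0561). Zfpm1, a GATA cofactor, rose by 0.89 (SE 0.12), Kit, the stem cell factor receptor used for the selection, by 0.60 (SE 0.07), and Tal1, a GATA partner, by 0.72 (SE 0.15), the last lost without WT 1, WT 3 or Runx1 KO 2. Mitf, a mast cell transcription factor, and Cebpa, a myeloid one used in basophil fate, did not pass (0.22 and -0.05). Bhlhe40, a transcription factor used by basophils and mast cells, fell from 1765 ± 446 to 432 ± 253 (-2.15, SE 0.38). Id2, an inhibitor of E-box-binding factors, fell by 1.85 (SE 0.23), Hes1, a Notch target, by 1.49 (SE 0.41) and Spi1, which encodes PU.1, by 0.36 (SE 0.10). The calls for Hes1 and Spi1 did not hold without WT 1, WT 3, Runx1 KO 2 or Runx1 KO 3, with limma adjusted p up to 0.140, and that for Spi1 was also lost without WT 2 and with library totals as the scaling. With library totals, 3 regulators fell and 9 rose. With 1 library left out, 2 to 6 regulators were called lower and 6 to 9 higher. The count called higher was lowest without Runx1 KO 2. The count called lower was 2 without WT 1, WT 3, Runx1 KO 2 or Runx1 KO 3.

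**Figure D4:**
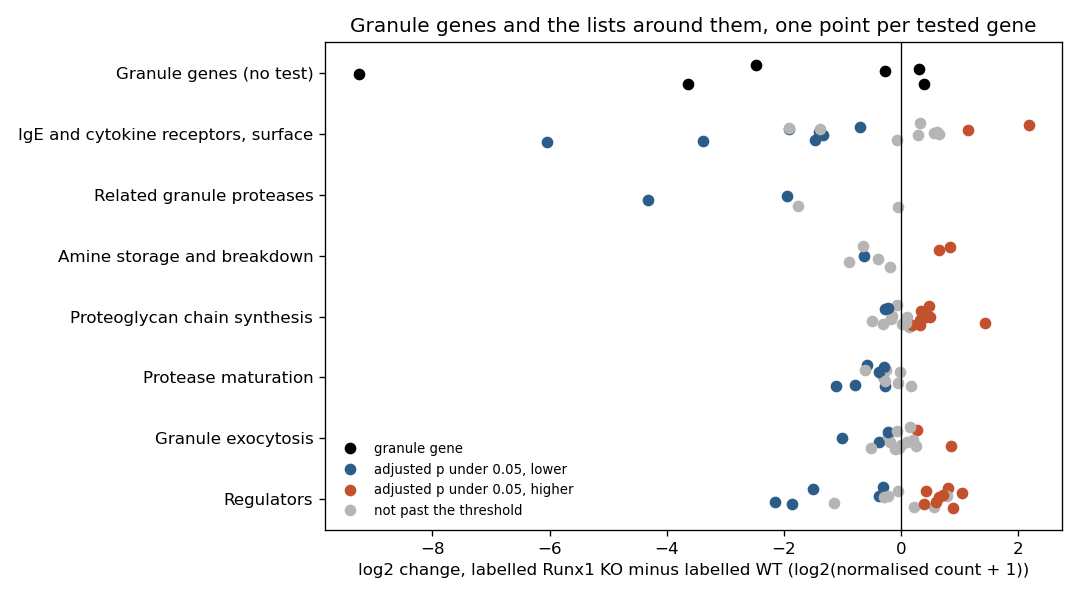
Log2 change (KO-labelled minus WT-labelled, on the log2(normalised reads + 1) scale) of the 6 granule genes that passed the filter, in black and untested, and of the tested genes of 7 pathway lists, 1 point per gene. Receptor and surface genes spread from -6.04 to 2.18, related proteases reach -4.31 and regulators reach -2.15. Genes of the proteoglycan, protease maturation and exocytosis lists lie between -1.10 and 1.44.

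Markers of basophils and mast cells other than the genes described did not all follow Mcpt8 and Prss34. Of the basophil markers, Fcer1a and Ms4a2 fell, and Cd200r3 and Itga2 did not pass with all libraries. Cd200r3 was called higher without WT 1 (limma adjusted p = 0.0236), and Itga2 was called higher without Runx1 KO 3. Itga2 measured 89.0, 74.7 and 86.3 normalised reads in WT 1 to 3 and 167, 151 and 84.5 in Runx1 KO 1 to 3. The summed basophil list, which includes Mcpt8 and Prss34, ranged from 4579 to 7410 normalised reads in the WT-labelled libraries and from 598 to 791 in the KO-labelled ones. Of the mast cell markers, Tpsab1 and Mcpt4 had no row, and Cpa3 and Kit made up nearly all of the sum. Tpsb2 was low and overlapped between the groups, with 1, 20 and 5 reads in WT 1 to 3 and 2, 0 and 6 in Runx1 KO 1 to 3. Cma1 had 19, 66 and 49 reads in WT 1 to 3 and 8, 3 and 9 in Runx1 KO 1 to 3. Kit, the receptor used for the selection, measured 8301 ± 280 normalised reads in the WT-labelled libraries and 12649 ± 1093 in the KO-labelled ones.

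Some markers of other blood lineages were also called. Over all tested genes, 11.3% were called lower and 10.6% higher. Neutrophil markers fell in 10 of 12, with sums of 303083 to 385029 normalised reads in the WT-labelled libraries and 142203 to 200736 in the KO-labelled ones. Eosinophil markers fell in 4 of 10 and rose in 1, with sums of 15343 to 23389 and 8257 to 12913. B-lymphoid markers fell in 6 of 8 (6166 to 27674 and 1022 to 2840), monocyte markers in 3 of 8 with 1 rise (46542 to 60492 and 42013 to 56179) and erythroid markers in 3 of 9 (29130 to 42301 and 25949 to 41399). Megakaryocyte markers rose in 4 of 7 (3655 to 4565 and 4726 to 7105). The monocyte sums overlapped between the groups, and so did the erythroid sums. Without Runx1 KO 2, 6 neutrophil, 1 eosinophil, 1 B-lymphoid, 2 monocyte and 2 erythroid markers were called lower and 2 megakaryocyte markers higher. The part of these shifts in the differences of the granule genes was not tested.

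The genes whose pattern over the 6 libraries was most like a granule gene were found by the mean absolute difference in log2(normalised reads + 1), each gene set to its own WT-labelled mean, among 12293 genes with a WT-labelled mean of at least 50. For Mcpt8 they were Sdc2, a cell-surface proteoglycan (mean difference 0.193), Ncam1, an adhesion molecule (0.201), and Il31ra, a chain of the interleukin-31 receptor (0.270). Ncam1 measured 1771, 1523 and 1233 normalised reads in WT 1 to 3 and 123, 175 and 116 in Runx1 KO 1 to 3.

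For Prss34 the nearest genes were farther away: Cldn1, a tight-junction protein (0.736), Scin, an actin-severing protein (1.14), and Fcer1a (1.62). Their WT-labelled means were 459, 379 and 252 normalised reads, against 2899 for Prss34. From these levels even 0 reads would not give a fall on this scale as deep as that of Prss34. The size and order of these distances therefore depend on the WT-labelled level. Cldn1 measured 587, 471 and 320 normalised reads in the WT-labelled libraries and 1.05, 0.991 and 0 in the KO-labelled ones. Nearest to Cpa3 were Hemk1 (0.0966), Kank3 (0.0996) and Coro2a (0.101). Each of them was, like Cpa3, highest in Runx1 KO 2, which a choice by likeness to Cpa3 favours. Nearest to Srgn were Clec12a, an inhibitory lectin receptor of myeloid cells (0.0193), Gpi1, a glycolytic enzyme (0.0285), and Dera (0.0317). These distances describe 6 libraries that share 1 contrast.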

How the data were processed

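RNA was measured in 6 libraries of c-Kit+ bone marrow cells, 3 labelled WT and 3 labelled Runx1 KO. Reads were processed with HISAT2 and HTSeq 0.9.1 on mm10 (GRCm38), per the submitters' processing notes. The deposited values are a signal per gene: in each library 100% of the values were whole multiples of the smallest positive one (tolerance 0.001), so they were read as read counts divided by a size factor. How the authors set that factor, and whether counting used the strand, are not given in the sources used here. Of 20097 identifiers, 20077 had a symbol; positions and lengths are from GENCODE M21.

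The members and lists were chosen with earlier results of these data known. limma 3.58.1 (lmFit, eBayes with trend, R 4.3.3) was fitted to log2(value + 1) over 15410 genes kept by filterByExpr of edgeR 4.0.16 (minimum count 10, minimum total 15), two-sided, with Benjamini-Hochberg adjustment over all of them and a threshold of 0.05. The fit was tested on simulated data. edgeR served only for this filter and for TMM factors, and no count test was run on the recovered reads. An exact permutation test of 3 libraries against 3 cannot go below 0.1, so none is given.

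Named were the 9 genes; in each pathway list up to 4 of the largest falls and 4 of the largest rises past the threshold, and genes needed to describe a function; Runx1 and Gata2; genes within 500 kb of the chymases and tryptases; and the 3 genes most like Mcpt8, Prss34, Cpa3 and Srgn. Another gene that this rule would name is not reported here. Alternatives were pseudocounts of 0.5 and 5, no filter or a mean of at least 50, TMM or library totals, a replicate block, and leaving out each library.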

Additional observations from a re-analysis of the deposited data

How the results depend on the processing

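With 1 library left out at a time, pathway genes called lower numbered 12 to 33 (26 reported), those called higher 12 to 20 (22 reported), and all genes called 1367 to 3597 (3370 reported), each lowest without Runx1 KO 2; the lower count was also 16 to 17 without any one of WT 1, WT 2, WT 3 or Runx1 KO 3, and the higher count 14 without WT 3. All genes called came to 2208 without WT 2 and 1767 without Runx1 KO 3. Of the 48 calls among pathway genes, 40 were kept in every fit with all libraries and 23 in every fit, and none changed sign. Whether the replicate numbers pair the libraries could not be decided from the correlations of deviations from the group means. These were 0.287, 0.129 and -0.010 for numbers 1 to 3. The first was the highest of all pairs, but WT 2 was closer to Runx1 KO 3 (0.235) than to Runx1 KO 2. With a replicate block, 33 pathway genes were called lower and 25 higher, 47 of these 58 among the 48 reported. All genes called came to 3843 with this block. Of 77 log2 differences of granule genes recomputed, 76 moved by less than their spread and 1 by more, Prss34 at a pseudocount of 5 (-8.33). The mean difference of Cpa3 ran from 0.19 to 0.63 with 1 library left out. With the longest transcript as length, the WT-labelled levels per kilobase of Srgn and Hdc were 8594 and 1439. The planned edgeR and DESeq2 tests on whole reads were not run. Depth limits Prss34, Cma1 and Tpsb2, whose KO-labelled values rest on 11, 20 and 8 reads.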
